A study of Mus musculus with 6 samples.

Results

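The genes described here are 8 liver genes through which glucose and fructose enter glycolysis and leave it as pyruvate or lactate: Slc2a2, Gckr, Pfkl, Pfkfb1, Khk, Pklr, Pkm and Ldha. They were chosen by symbol, all 8 were among the 55450 genes of the deposited count table, and all 8 were among the 14539 genes that passed the low-count filter. The samples were left liver lobes of 6 mice, with 1 poly(A) RNA library per mouse. In 3 mice, labelled LKB1 fl/fl, both alleles of LKB1 (gene symbol Stk11, a kinase that activates AMPK and related kinases) were flanked by loxP sites, and these are the knockout (KO) group. The other 3 were wild type (WT). Both groups, on a background labelled C57BL/J, received AAV8 Cre at 6 weeks of age, so the WT mice carried the virus and the recombinase as well, and the livers were taken at 10 weeks. AAV8 is a viral serotype used to reach hepatocytes, the labels do not name the promoter that drives Cre, and the RNA came from whole tissue.

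In the liver, glucose enters and leaves hepatocytes through the transporter GLUT2, is phosphorylated, and is committed to glycolysis by phosphofructokinase. Fructose bypasses that control, because ketohexokinase phosphorylates it and the product is split into triose phosphates. The bifunctional PFKFB enzymes make and break fructose 2,6-bisphosphate, the signal that favours glycolysis over gluconeogenesis, and pyruvate kinase closes the pathway. Hepatocytes use the L-type pyruvate kinase encoded by Pklr, whose transcription responds to sugar through the factor ChREBP (gene Mlxipl), whereas Pkm encodes the M-type enzyme of most other cells.

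Libraries held between 47659122 and 56147667 counts. Stk11 was at 22.1, 14.4 and 11.4 CPM (counts scaled to a common library size) in the KO libraries and at 66.1, 64.2 and 69.7 CPM in the WT libraries, and its mRNA fell by 2.06 ± 0.247 on the log2 scale (SE; edgeR adjusted p = 0.0167). Replicate 1 of each group had 29243 or more counts of Xist, and the other 4 libraries had at most 16 and instead 6146 or more counts of 4 Y-linked genes. Values are therefore also given within the 4 Y-marked libraries (2 against 2) and within the Xist-marked pair (1 against 1, with no replicate check). The summed level of 6 hepatocyte markers was 67246, 23331 and 38297 CPM in KO and 116466, 89900 and 76164 CPM in WT. Albumin alone was at 10394 to 50550 CPM in KO and 57064 to 95626 CPM in WT, and no marker of this list was at 0. The other 5 markers summed to 12936 to 20763 CPM in KO and 19099 to 20840 CPM in WT, which overlap. Of the 6, Alb, Apoa1 and Ttr were lower in every KO library, and Serpina1a overlapped. Cps1 (log2 fold change 1.17, unadjusted p = 0.0122 in edgeR, n = 3 per group) and Hnf4a (0.20, unadjusted p = 0.262 in edgeR) were higher in every KO library. For Hnf4a the margin was small, with 542 CPM in KO 1 and 539 CPM in WT 1. Of 9 lists of cell type and cell cycle markers, 0 genes were called in edgeR, against 3.37% of all genes. Unadjusted p-values under 0.05 were found for 7 of 8 endothelial markers, all lower in KO, against 11.7% of all genes as lower. The 6 cell cycle genes summed to 52.6 CPM in KO 1 and to 4.16 to 8.65 CPM in the other 5 libraries. In whole tissue, fewer cells of a type and less RNA per cell cannot be told apart.

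The knockout livers had less mRNA of the glucose transporter and more of Gckr in every comparison of a KO with a WT library, and also less of both phosphofructokinase-level genes, Pfkl and Pfkfb1. Pklr and Ldha were low in KO 2 and KO 3 but within or above the WT range in KO 1. Khk was highest in KO 1, and the Pkm values of the groups overlapped. With all 6 libraries, 0 of the 8 genes passed the threshold (a Benjamini-Hochberg adjusted p-value under 0.05 in edgeR, quasi-likelihood), where 2.15% of all genes tested were called as higher and 1.22% as lower, 3.37% together. Unadjusted, 4 had p-values under 0.05, Gckr as higher (14.6% of all genes) and Slc2a2, Pfkl and Pfkfb1 as lower (11.7%), against 26.3% of all genes in either direction. limma voom called 0 of the 8 (2.97% of all genes) and DESeq2 called 3, Slc2a2 and Pfkfb1 as lower (7.03% of all genes) and Gckr as higher (8.77%), with 15.8% of all genes in either direction. The median log2 fold change of the 8 genes was -0.44, beside 0.01 over all genes tested. The groups did not overlap for 1 gene that was higher and 3 that were lower in KO, and of all genes tested 16.9% were higher and 15.5% lower in this way, 32.4% together.

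**Figure D1:**
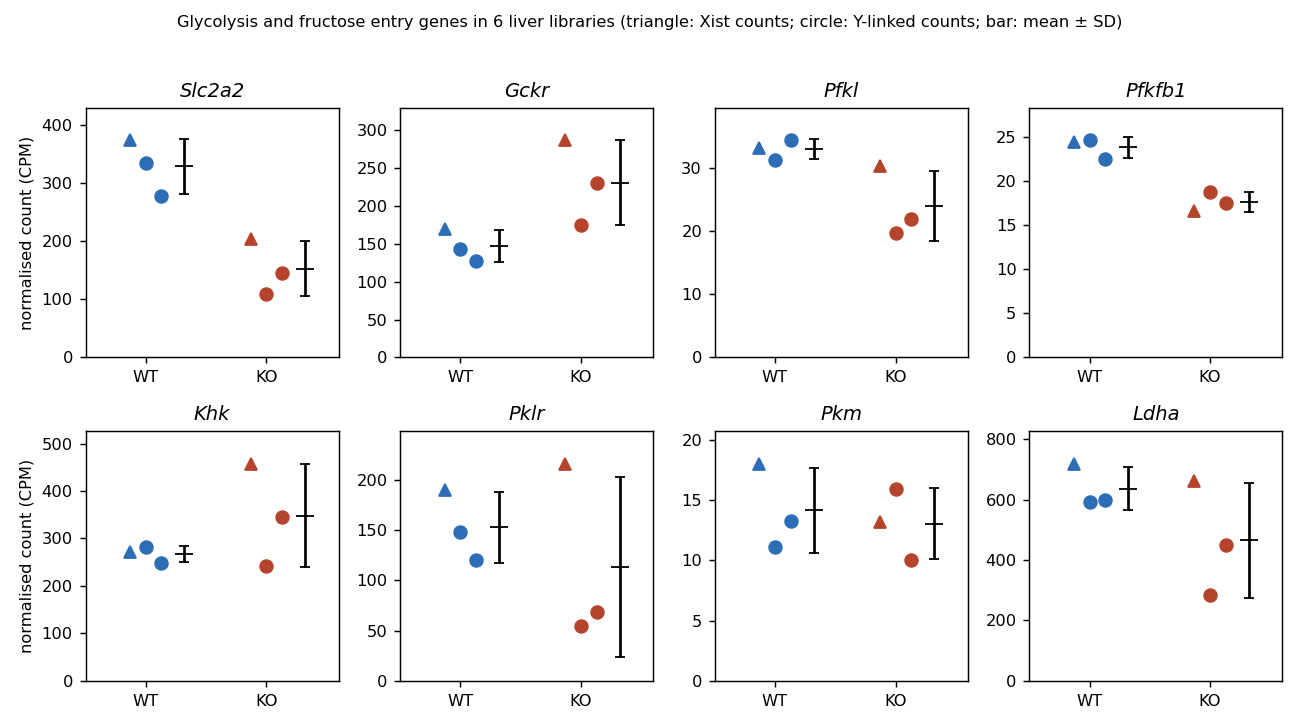
Normalised counts (CPM, linear axes from 0) of the 8 genes in each library, with WT in blue and KO in red, triangles for the libraries with Xist counts and circles for those with Y-linked counts; bars are the mean ± SD of 3. Slc2a2, Pfkl and Pfkfb1 lie lower and Gckr higher in all 3 KO libraries, while for Pklr, Ldha and Khk the KO library with Xist counts stands above the other KO libraries.

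Slc2a2 encodes GLUT2, the high-capacity glucose and fructose transporter of hepatocytes (ENSMUSG00000027690.13, GRCm38 chromosome 3, 28697903 to 28731359, plus strand). Its level was 203, 109.6 and 146 CPM in KO 1 to 3 and 374, 334 and 278 CPM in WT 1 to 3. Every KO library lay below every WT library, and the highest KO value came from the library with Xist counts. The means were 153 ± 47.3 and 329 ± 48.1 CPM (SD, n = 3 each), a log2 fold change of -1.10 ± 0.257 (SE; 95% interval -1.71 to -0.50; adjusted p = 0.064 in edgeR). Within the 4 Y-marked libraries it fell by 1.27 on the log2 scale (adjusted p = 0.00784 in edgeR), and the Xist-marked pair gave a log2 ratio of -0.88. Of the hepatocyte markers given above, 3 were lower in every KO library and 2 were higher, Hnf4a only by a small margin. The part of these markers in the Slc2a2 values was not tested.

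Gckr encodes a liver regulatory protein of glucose phosphorylation whose action is relieved by fructose 1-phosphate (ENSMUSG00000059434.9, GRCm38 chromosome 5, 31297443 to 31327314, plus strand). Its level was 287, 175 and 231 CPM in KO and 169.5, 143 and 128 CPM in WT. The lowest KO library was just above the highest WT library. The means were 231 ± 55.9 and 147 ± 20.995 CPM (SD, n = 3 each), and the log2 fold change was 0.65 ± 0.220 (SE; 95% interval 0.13 to 1.17; adjusted p = 0.126 in edgeR). The log2 ratio was 0.58 in the Y-marked libraries, where the adjusted p-value in edgeR was 0.0541, and 0.76 in the Xist-marked pair.

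Khk encodes ketohexokinase, which makes fructose 1-phosphate, and lies 366 kb from Gckr on the same strand (ENSMUSG00000029162.15, GRCm38 chromosome 5, 30921431 to 30931248). Its level was 458, 242 and 345 CPM in KO and 272, 282 and 248 CPM in WT. KO 2 was below all WT libraries and the other KO libraries were above them, so the groups overlapped. The log2 fold change was 0.38 ± 0.246 (SE; 95% interval -0.20 to 0.96; adjusted p = 0.363 in edgeR). The log2 ratio was 0.15 in the Y-marked libraries and 0.75 in the Xist-marked pair, and without KO 1 the log2 fold change was 0.13 (adjusted p = 0.626 in edgeR). The log2 ratio of Khk to Gckr within a library does not depend on library scaling. It was 0.67, 0.46 and 0.58 in KO and 0.68, 0.98 and 0.96 in WT, a difference of -0.30 between the group means. Every KO value was below every WT value, KO 1 by only a little, and the exact permutation test (two-sided) gave p = 0.1, the smallest that 3 against 3 libraries allow.

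Promoter windows of Slc2a2 and Gckr are shown because these had the largest log2 fold changes of the 8 genes, in opposite directions. The window of Khk, the other entry gene, is shown because Khk lies 366 kb from Gckr. Each window runs from 250 bases before to 50 after a RefSeq transcription start (GRCm38.p6). The search, on both strands, was for the carbohydrate response element of ChREBP (ChoRE, CANGNG and CNCNTG with 5 bases between them), the E-box CACGTG, the cAMP response element (CRE, TGACGTCA), its half-site TGACG, the hypoxia core ACGTG, the HNF1 palindrome (GTTAAT and ATTAAC with 1 base between them) and the TATA box TATAAA. An E-box contains the hypoxia core, and a CRE contains its half-site. Capitals mark a ChoRE, E-box, CRE or TATA box.
Slc2a2, chr3:28697653-28697952, plus strand: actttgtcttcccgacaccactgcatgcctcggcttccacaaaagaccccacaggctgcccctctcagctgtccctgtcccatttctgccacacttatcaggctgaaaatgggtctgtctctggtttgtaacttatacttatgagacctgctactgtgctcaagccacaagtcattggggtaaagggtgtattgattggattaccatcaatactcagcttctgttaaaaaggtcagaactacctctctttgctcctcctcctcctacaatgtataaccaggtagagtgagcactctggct
Gckr, chr5:31297313-31297612, plus strand: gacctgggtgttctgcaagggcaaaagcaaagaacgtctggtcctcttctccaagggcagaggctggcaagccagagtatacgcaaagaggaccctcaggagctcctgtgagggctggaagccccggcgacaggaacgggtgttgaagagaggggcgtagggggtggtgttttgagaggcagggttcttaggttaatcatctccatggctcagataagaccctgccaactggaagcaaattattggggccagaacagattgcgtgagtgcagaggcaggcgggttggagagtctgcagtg
Khk, chr5:30921309-30921608, plus strand: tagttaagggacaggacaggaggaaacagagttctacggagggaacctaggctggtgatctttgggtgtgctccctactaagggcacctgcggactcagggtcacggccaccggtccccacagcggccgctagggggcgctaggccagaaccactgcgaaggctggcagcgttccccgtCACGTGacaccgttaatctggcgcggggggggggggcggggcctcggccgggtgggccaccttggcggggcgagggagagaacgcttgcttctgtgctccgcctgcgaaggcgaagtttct
The windows of Slc2a2 and Gckr held none of the 7 motifs. The Khk window held 1 E-box, with its first base at -71 when the start site is counted as 0, and a CRE half-site on the opposite strand that overlaps it. Of 32851 windows of all genes, 7.15% held an E-box, 20.8% a CRE half-site and 19.6% the hypoxia core.

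Pfkl encodes the liver subunit of phosphofructokinase, the committing step of glycolysis (ENSMUSG00000020277.10, GRCm38 chromosome 10, 77986947 to 78010083, minus strand). It was at 30.2, 19.8 and 21.9 CPM in KO and 33.2, 31.3 and 34.4 CPM in WT. All KO values were lower, with KO 1 close to WT. The log2 fold change was -0.46 ± 0.175 (SE; 95% interval -0.87 to -0.05; adjusted p = 0.158 in edgeR). Within the 4 Y-marked libraries Pfkl fell by 0.66 (adjusted p = 0.0103 in edgeR), and the Xist-marked pair gave a log2 ratio of -0.13. Pfkl lies 2106 kb from Stk11 on the same chromosome, and whether the floxed mice differ from WT in that interval was not tested.

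Pfkfb1 encodes the liver form of the bifunctional enzyme that makes and breaks fructose 2,6-bisphosphate (ENSMUSG00000025271.13, GRCm38 chromosome X, 150588229 to 150643878, plus strand). It was at 16.6, 18.8 and 17.5 CPM in KO and 24.4, 24.6 and 22.4 CPM in WT. The means were 17.6 ± 1.12 and 23.8 ± 1.20 CPM (SD, n = 3 each), with no overlap, and its fold change had the smallest standard error of the 8 genes. The log2 fold change was -0.44 ± 0.110 (SE; 95% interval -0.70 to -0.17; adjusted p = 0.0747 in edgeR). It fell by 0.38 within the 4 Y-marked libraries (adjusted p = 0.0461 in edgeR), and the log2 ratio was -0.56 in the Xist-marked pair. Its annotated range shares 1640 bases with Apex2 on the opposite strand, which had 357 to 593 counts in KO and 242 to 270 in WT, and the use of strand in counting is not stated.

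Other genes at this step come from a list of 8, of which 7 were tested. Fbp1, the gluconeogenic fructose bisphosphatase that opposes phosphofructokinase, rose by 1.62 ± 0.231 on the log2 scale (SE, adjusted p = 0.0252 in edgeR), from 740 ± 99.7 to 2278 ± 439 CPM (SD, n = 3 each). Pfkfb3, an inducible PFKFB gene, fell by 1.45 (adjusted p = 0.0322 in edgeR), from 8.02 ± 2.30 to 2.94 ± 0.222 CPM. The other 5 members did not pass the threshold, and the list's median log2 fold change was 0.28.

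Pklr encodes L-type pyruvate kinase (ENSMUSG00000041237.12, GRCm38 chromosome 3, 89136142 to 89146784, plus strand). It was at 216, 55.0 and 68.1 CPM in KO and 190.1, 148 and 120.0 CPM in WT. KO 1 was the highest of all 6 libraries and KO 2 and KO 3 were the lowest, so the group mean of 113 ± 89.4 CPM in KO describes none of them. The log2 fold change over 6 libraries was -0.44 ± 0.518 (SE; 95% interval -1.66 to 0.79; adjusted p = 0.621 in edgeR). Within the 4 Y-marked libraries Pklr fell by 1.13 (adjusted p = 0.0072 in edgeR), whereas the Xist-marked pair gave a log2 ratio of 0.18. The difference between these ratios, tested as an interaction of group and kind of library over all genes, was 1.31 with an unadjusted p-value of 0.00558 and an adjusted p-value of 0.0968 in edgeR. Of all genes tested, 20.9% had an unadjusted interaction p-value under 0.05, and 2.90% an adjusted one. In that model the 2 libraries with Xist counts are assumed to vary like the other 4.

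Mlxipl, the gene of the sugar-sensing factor ChREBP, had the same layout of libraries. It was at 272, 69.9 and 86.9 CPM in KO and 183, 180.2 and 196 CPM in WT, with a log2 ratio of -1.26 in the Y-marked libraries and 0.58 in the Xist-marked pair. Its interaction passed the threshold (difference 1.84, adjusted p = 0.034 in edgeR). Txnip, another sugar-responsive gene, was at 171, 52.3 and 49.7 CPM in KO and 135, 99.4 and 67.0 CPM in WT, and its interaction did not pass (adjusted p = 0.184 in edgeR). Over the 10 genes of the sugar-responsive list, the median log2 ratio was -0.10 in the Y-marked libraries and 0.28 in the Xist-marked pair. Arrdc4 and Acly, also of this list and named here after their values were seen, did not share the layout of Pklr and Mlxipl. Arrdc4 had a log2 ratio of 1.52 in the Y-marked libraries and -0.06 in the Xist-marked pair (interaction -1.59, adjusted p = 0.0717 in edgeR), and Acly had 1.45 and 1.05. Pklr is also transcribed in red cell precursors. The 5 tested genes of that marker list summed to 192, 35.2 and 47.0 CPM in KO. In WT they summed to 123, 322 and 237 CPM. In the test of KO against WT, 0 of them were called. Their interaction passed the threshold for Alas2 (5.81, adjusted p = 0.00508 in edgeR), Hba-a1 (2.97, 0.0189) and Hbb-bt (3.11, 0.0372). It did not pass for Hbb-bs (2.56, 0.0595) or Epor (0.53, 0.683). Of all genes tested, 2.9% passed. Of the cell cycle genes, which were highest in KO 1, Top2a alone passed the interaction (3.84, adjusted p = 0.0202 in edgeR). The part of either list in the Pklr values was not tested.

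Pkm encodes M-type pyruvate kinase (ENSMUSG00000032294.17, GRCm38 chromosome 9, 59656368 to 59679375, plus strand). It was at 13.2, 15.9 and 10.04 CPM in KO and 18.0, 11.1 and 13.3 CPM in WT. The groups overlapped, and the log2 fold change of -0.12 ± 0.238 (SE; 95% interval -0.68 to 0.45; adjusted p = 0.784 in edgeR) had the opposite sign, 0.09, within the Y-marked libraries. The log2 ratio of Pkm to Pklr was -4.04, -1.79 and -2.76 in KO and -3.40, -3.74 and -3.18 in WT. M-type message was thus scarcest relative to L-type in KO 1 and most frequent in KO 2 and KO 3, and the difference of the group means, 0.57, had p = 0.5 in the exact permutation test (two-sided). Per kilobase of exon, Pklr exceeded Pkm in every library, by 5.34-fold to 25.4-fold in KO and by 13.97-fold to 20.6-fold in WT. Counts per gene do not separate the M1 and M2 splice forms, nor the liver and red cell starts of Pklr. Pkm is also made by non-parenchymal cells. The summed macrophage markers were 308, 185 and 139 CPM in KO and 242, 199.7 and 275 CPM in WT, with 0 of 10 called. The 8 endothelial markers summed to 92.7 to 153 CPM in KO and 190.2 to 257 CPM in WT. In edgeR 0 of these 8 were called, and 7 were lower at an unadjusted p-value under 0.05, against 11.7% of all genes. The part of the macrophage and endothelial markers in the Pkm values was not tested.

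Ldha encodes the lactate dehydrogenase subunit that prevails in liver (ENSMUSG00000063229.15, GRCm38 chromosome 7, 46841475 to 46855627, plus strand). Its level was 663, 283 and 449.6 CPM in KO and 719, 592 and 599 CPM in WT. KO 2 and KO 3 were below all WT libraries, and KO 1 lay inside the WT range. The log2 fold change was -0.45 ± 0.313 (SE; 95% interval -1.20 to 0.29; adjusted p = 0.394 in edgeR). It was -0.71 within the Y-marked libraries, which did not pass either (adjusted p = 0.08 in edgeR), and the log2 ratio was -0.12 in the Xist-marked pair. Ldhb, Ldhd and 6 further genes of lactate and pyruvate handling formed a list in which 0 of 8 passed the threshold in edgeR. An unadjusted p-value under 0.05 was found for 0 of them. Of all genes tested, 3.37% passed and 26.3% had such an unadjusted p-value.

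The promoter windows of Pklr and Ldha are shown because both genes were lowest in KO 2 and KO 3 and their windows hold the longer motifs that were found. For Pklr this is the window of the second, downstream RefSeq start, and for Ldha that of the first.
Pklr, chr3:89136373-89136672, plus strand: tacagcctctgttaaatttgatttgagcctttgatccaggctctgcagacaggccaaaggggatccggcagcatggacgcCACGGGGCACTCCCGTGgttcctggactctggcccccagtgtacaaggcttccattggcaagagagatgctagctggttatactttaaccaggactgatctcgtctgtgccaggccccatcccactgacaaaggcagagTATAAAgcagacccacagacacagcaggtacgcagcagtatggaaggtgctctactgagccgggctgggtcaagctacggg
Ldha, chr7:46845554-46845853, plus strand: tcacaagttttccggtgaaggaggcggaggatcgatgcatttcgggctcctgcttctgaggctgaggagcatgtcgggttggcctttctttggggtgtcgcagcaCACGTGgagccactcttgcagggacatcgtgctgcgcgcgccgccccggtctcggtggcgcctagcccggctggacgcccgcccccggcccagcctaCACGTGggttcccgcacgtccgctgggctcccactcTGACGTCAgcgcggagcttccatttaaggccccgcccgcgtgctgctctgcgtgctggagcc
The Pklr window held a ChoRE match, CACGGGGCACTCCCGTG, with its first base at -170, and a TATA box at -31. A match to these ChoRE letters was present in 183 of 32851 windows, or 0.557%, and in 1 of the 14 windows of the 8 genes. The Ldha window held 2 E-boxes, at -145 and -48, and 1 full CRE, at -12, which 1.79% of all windows held. It also held a hypoxia core outside both E-boxes, on the opposite strand, with its first base at -34. A TATA box was found in 13.6% of all windows and the HNF1 palindrome in 0.00913%. These matches describe letters only and give no evidence of binding.

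**Figure D2:**
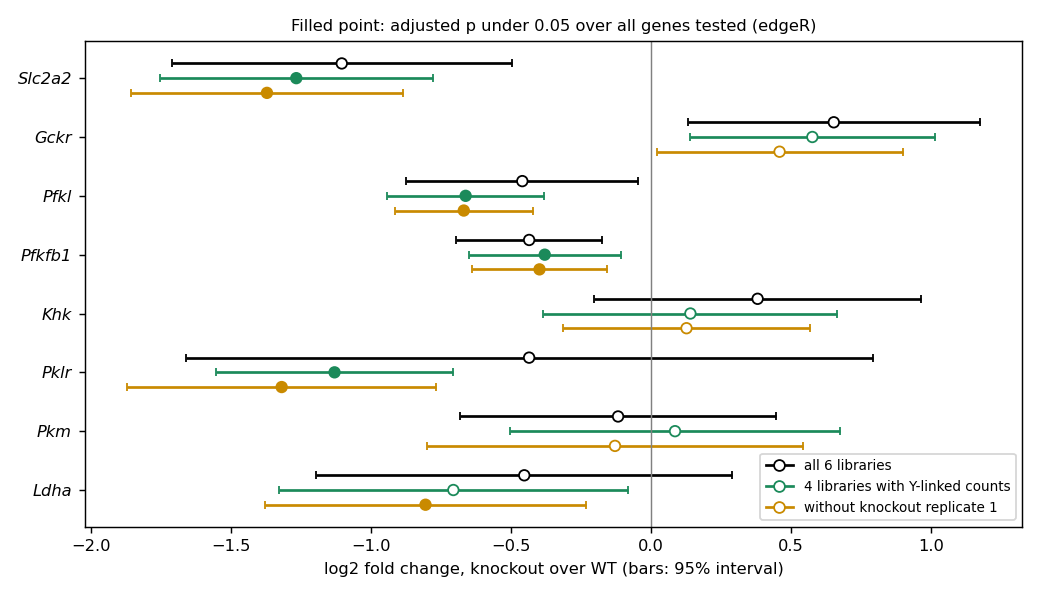
Log2 fold changes (KO over WT) of the 8 genes with 95% intervals derived from the edgeR test. They are given in all 6 libraries (black), in the 4 Y-marked libraries (green) and without KO 1 (orange). Filled points have an adjusted p-value under 0.05. Pklr moves from -0.44 to -1.13 and -1.32 when KO 1 is not used, whereas Pfkfb1 stays between -0.44 and -0.38.

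Which genes passed depended on KO 1. Its log2 CPM values correlated at 0.968, 0.956 and 0.953 with WT 1 to 3, and at 0.943 and 0.959 with KO 2 and KO 3. KO 1 also kept the most Stk11 mRNA of the KO libraries. The Stk11 log2 ratio was -1.57 in the Xist-marked pair and -2.37 in the Y-marked libraries. In KO 1 the Stk11 level and the kind of library cannot be told apart, and the part of either was not tested. Within the 4 Y-marked libraries 4 of the 8 genes fell (Slc2a2, Pfkl, Pfkfb1 and Pklr) and 0 rose, against 16.1% lower and 17.2% higher of all genes, 33.3% together. In these 4 libraries the groups did not overlap for 5 genes as lower, Ldha included, and 1 as higher, Gckr, against 35.4% and 36% of all genes. Without KO 1 alone, 5 fell, the same 4 and Ldha (log2 fold change -0.81, adjusted p = 0.0469 in edgeR), against 14.2% of all genes, and 0 rose, against 16% (30.2% together). Leaving out any other single library gave 0 calls among the 8 in edgeR, where 0.578% (KO 2), 0.233% (KO 3), 1.75% (WT 1), 0.0401% (WT 2) and 0.133% (WT 3) of all genes were called. Their number was also 0 with other size factors (RLE, 3.29%), library size alone (3.51%) and the replicate number as a block (0.722%). With the kind of library as a covariate, Slc2a2 alone passed (-1.13, adjusted p = 0.0309 in edgeR), where 4.99% of all genes were lower and 5.36% higher, 10.3% together. With no low-count filter it also passed alone (-1.12, adjusted p = 0.0465 in edgeR), where 1.21% were lower and 2.04% higher, 3.25% together. The interaction itself passed the threshold for 0 of the 8 genes in edgeR, against 2.9% of all genes. Its unadjusted p-value was under 0.05 for 2, Pklr and Pfkl, against 20.9% of all genes.

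Divided by exon length, the levels gave an order of the 8 genes within WT of Ldha, Khk, Slc2a2, Pklr, Gckr, Pfkfb1, Pfkl and Pkm, at 192 ± 21.7, 149 ± 9.60, 57.1 ± 8.35, 47.2 ± 10.9, 33.9 ± 4.84, 5.93 ± 0.300, 4.94 ± 0.235 and 2.83 ± 0.707 CPM per kb (SD, n = 3). The WT ranges of the neighbours Slc2a2 and Pklr overlapped, as did those of Pklr and Gckr, and the others did not. In KO the order was Khk, Ldha, Gckr, Pklr, Slc2a2, Pfkfb1, Pfkl and Pkm, at 194 ± 60.1, 141 ± 57.6, 53.3 ± 12.9, 34.9 ± 27.6, 26.6 ± 8.22, 4.38 ± 0.278, 3.59 ± 0.829 and 2.61 ± 0.588 CPM per kb. In KO, Ldha did not overlap Gckr and Slc2a2 did not overlap Pfkfb1, and every other pair of neighbours overlapped.

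For some pairs of genes the order within each library separated the groups. These pairs were picked after the values had been seen and have no test. Gckr exceeded Slc2a2 per kb in 3 of 3 KO libraries, by 1.87-fold to 2.12-fold, and in 0 of 3 WT libraries, where the ratio was 0.570 to 0.611. Khk exceeded Ldha per kb in 3 of 3 KO libraries, by 1.27-fold to 1.57-fold, and in 0 of 3 WT libraries, where the ratio was 0.696 to 0.878. That KO 1 sided with the other KO libraries in both ratios follows from how the pairs were picked.

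Most genes of the steps between entry and pyruvate kinase had higher means in KO. The list of shared steps from phosphoglucose isomerase to enolase had 12 genes, of which 11 were tested, and the median over them was 1.06 on the log2 scale (1.29 in the Y-marked libraries and 0.55 in the Xist-marked pair). KO 1 stood apart here too, closer to WT than KO 2 and KO 3, for example in Eno1, at 687, 1331 and 1409.6 CPM in KO 1 to 3 and 401, 368 and 354 CPM in WT. In edgeR 3 were called as higher and 1 as lower, against 2.15% and 1.22% of all genes. With unadjusted p-values under 0.05 there were 9 and 2, against 14.6% and 11.7% of all genes. Gpi1, phosphoglucose isomerase, rose from 128 ± 3.93 to 323 ± 68.0 CPM (SD, n = 3; log2 fold change 1.33, adjusted p = 0.0255). Gapdh rose from 795 ± 58.9 to 1821 ± 436 CPM (1.20, adjusted p = 0.049) and Eno1, enolase, from 374 ± 24.2 to 1143 ± 396 CPM (1.61, adjusted p = 0.0431). Bpgm, which makes 2,3-bisphosphoglycerate, fell from 15.1 ± 1.61 to 8.70 ± 0.993 CPM (-0.80, adjusted p = 0.044). Apart from Bpgm, the enzymes of this list serve glycolysis and gluconeogenesis alike.

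**Figure D3:**
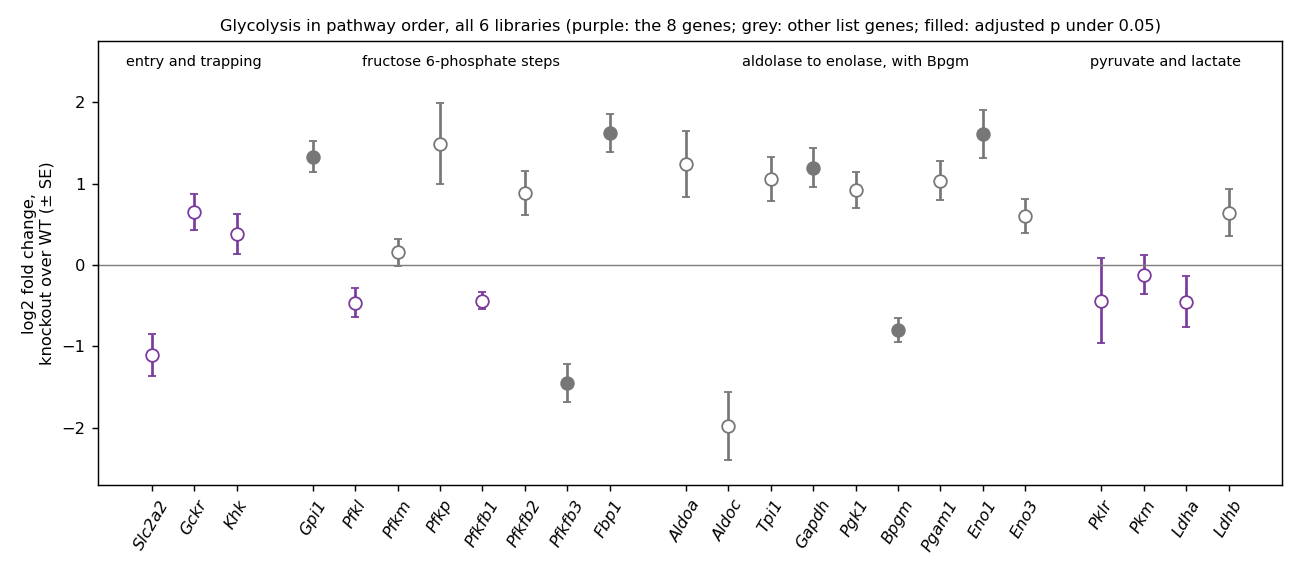
Log2 fold changes (KO over WT, ± SE, all 6 libraries, edgeR) of genes arranged by pathway step, with the 8 genes in purple, other list genes in grey, and filled points for adjusted p-values under 0.05. Apart from Aldoc (-1.98), Bpgm (-0.80) and Eno3 (0.60), the plotted genes of the shared steps lie between 0.92 and 1.61, while the purple points lie between -1.10 and 0.65.

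Among the other transporters (12 genes, 9 tested) Slc2a4 and Slc2a8 passed. Slc2a4, the insulin-responsive transporter of muscle and fat, was at 3.29, 10.6 and 6.30 CPM in KO and 0.256, 0.0579 and 0.0428 CPM in WT. It rose (log2 fold change 5.78 ± 0.741, SE; adjusted p = 0.0188 in edgeR), with a size that depends on the prior count, since the WT levels are near 0. Slc2a8 fell from 16.4 ± 0.757 to 10.1 ± 0.605 CPM (-0.70, adjusted p = 0.0347 in edgeR). Of the fructose and polyol list (7 genes) 0 passed in edgeR. Unadjusted p-values under 0.05 marked 3 as higher and 2 as lower, against 14.6% and 11.7% of all genes. The sugar-responsive list (10 genes) and the hepatocyte factors (9) also had 0 calls. They had 1 and 2 genes at an unadjusted p-value under 0.05, against 26.3% of all genes in either direction. Over all 8 lists, 65 of 70 genes were tested, 5 rose and 3 fell, and the median log2 fold change was 0.09. The background was 2.15% of genes higher and 1.22% lower. These 8 calls were all lost without KO 2, KO 3, WT 2 or WT 3, and with the replicate number as a block (0 called in edgeR in each). Without WT 1, 6 of the 8 were lost and 2, Slc2a4 and Pfkfb3, remained, so the shared-step genes and Fbp1 passed in only 1 of the 6 fits that leave out a library, that without KO 1.

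**Figure D4:**
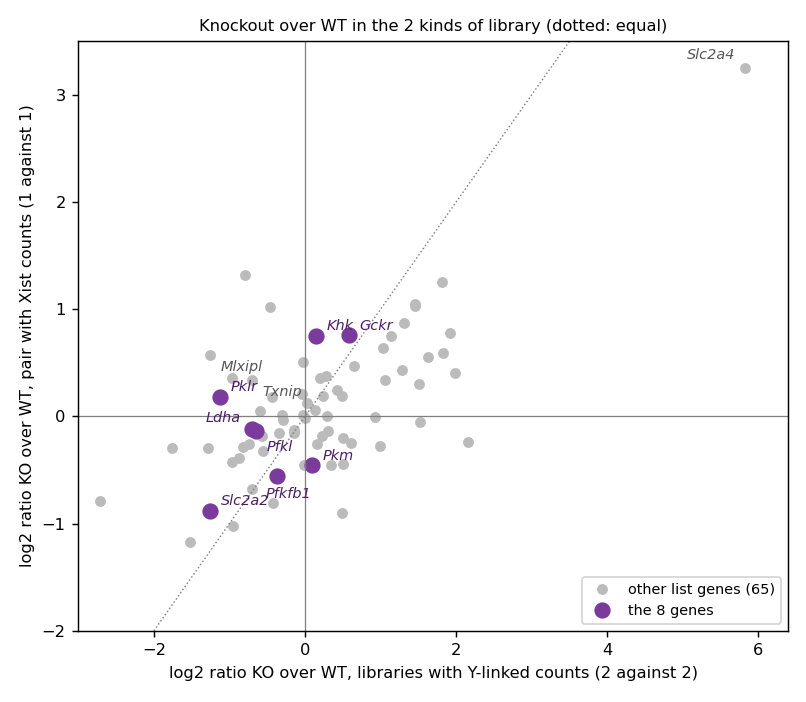
Log2 ratio of KO to WT in the 4 Y-marked libraries (horizontal) and in the Xist-marked pair (vertical) for the 8 genes (purple) and 65 other list genes (grey); the dotted line marks equal ratios. Pklr and Mlxipl lie left of 0 and above it, whereas Slc2a2 (-1.26 and -0.88) and Gckr (0.58 and 0.76) keep their side of 0 in both.

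Among 7503 other genes with a mean of at least 10 CPM, those most like each of the 8 were found by the Pearson correlation of log2 CPM over the 6 libraries, which share the group difference and the library differences described above. Slc2a2 was closest to Erg28 (r = 0.998) and Nr2f2 (0.998), Gckr to Cyp26a1 (0.979) and Copz2 (0.972), and Khk to Smc4 (0.995) and Fam207a (0.986). Pfkl was closest to Chd3 (0.996) and Plce1 (0.994), and Pfkfb1 to Cdc42ep4 (0.991) and Elmod2 (0.987). Pklr was closest to Kdelr1 (0.991) and Hgfac (0.989), Ldha to Prr16 (0.997) and Hadh (0.994), and Pkm to Cxcl9 (0.993) and Hnrnpul1 (0.966). Among the 8 genes themselves, Slc2a2 and Pfkl (r = 0.93), Pklr and Ldha (0.92) and Pfkl and Ldha (0.91) ran most alike, and Gckr ran against Pfkfb1 (-0.84). With 6 libraries such coefficients describe these samples only.

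Some annotated genes share sequence or position with the 8 genes. Pkm has a processed pseudogene, Gm6560, that is 98.4% identical over 1593 bases and had 6 counts over all libraries, beside 4237 of Pkm. Ldha has 4 processed pseudogenes above 95% identity, with at most 54 counts each, beside 170738 of Ldha. Pkm also shares 3887 bases with the unclassified gene Gm49759 on its own strand, which had 17.0 to 61.97 counts per KO library and 24.05 to 28.7 per WT library. Pklr shares 711 bases with Hcn3 on the opposite strand, which had 1 to 11 counts per library, and Slc2a2 overlaps the antisense gene 1700112D23Rik, which had 0 counts in all 6.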

How the data were processed

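Expected counts per gene, as RSEM estimates them, were deposited by the authors for 55450 genes in 6 libraries. The submitters' processing notes name bcl2fastq 2.17, cutadapt 1.18, STAR 2.7.0f, RSEM 1.3.1 and the genome build mm9. All 55450 identifiers, version numbers included, were found in GENCODE release M21 for GRCm38, so names, positions and exon lengths come from that annotation, and promoter windows from RefSeq (GRCm38.p6), whose table held all 8 symbols in 14 windows. Use of strand was not given in the sources used here. Columns were matched to samples by the column name in each sample's description, and groups were taken from the titles.

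Expected counts were rounded. Genes were kept by filterByExpr of edgeR 4.0.16, libraries were scaled by TMM, and the quasi-likelihood test of edgeR (R 4.3.3), with group as the only term, compared KO with WT. P-values were adjusted by Benjamini-Hochberg over 14539 genes, with a threshold of 0.05. Standard errors of log2 fold changes were derived as the absolute log2 fold change divided by the square root of the edgeR F statistic. The 95% intervals were built from these standard errors and the t distribution. CPM values use TMM-scaled library sizes, correlations use log2 CPM with a prior count of 2, and ratios within subsets use an offset of 0.1 CPM. Exact tests enumerate 20 assignments. Alternatives were other scalings, no filter, DESeq2 1.42.0, limma voom 3.58.1, a replicate block, subsets and leaving out each library. The members, lists and named genes (the 8 genes, Stk11, Mlxipl, Txnip, up to 5 called genes per list, and the 2 most similar genes per member) were chosen with earlier results of these data known. Some genes covered by that rule are not reported here. The labels state 3 mice per group, so p-values measure spread between mice. Near-identical transcripts were those of other genes with at least 95% identity over 200 bases.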

Additional observations from a re-analysis of the deposited data

Results flagged for a closer look

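In 5 genes of the pathway lists the difference between KO and WT itself was unequal in the Xist-marked pair (replicate 1 of each group) and in the 4 Y-marked libraries, by an interaction term with an adjusted p-value under 0.05 in edgeR. The 8 entry and exit genes gave 0 such results, and over all genes tested the share was 2.90%. Unadjusted interaction p-values under 0.05 in edgeR were found for 2 of the 8 genes and for 20.9% of all genes. The pair is 1 library against 1, assumed to vary like the rest. For Mlxipl, the ChREBP gene, the log2 fold change in the pair minus that in the other libraries was 1.84 (adjusted p = 0.034). For Aldoc, an aldolase, the difference was 1.98 (adjusted p = 0.0199), with lower levels in KO in both kinds of library. For Slc2a5, the fructose transporter GLUT5, it was 2.21 (adjusted p = 0.039), with 3.603 CPM in KO 1, 1.38 CPM in WT 1, 2.34 and 2.40 CPM in KO 2 and KO 3, and 4.03 and 4.36 CPM in WT 2 and WT 3. For Ldhd, a D-lactate dehydrogenase, the difference was 1.32 (adjusted p = 0.0472). Its level was 122, 99.6 and 110 CPM in KO and 95.3, 211 and 196 CPM in WT. The Ldhd log2 ratio was -0.96 in the Y-marked libraries and 0.36 in the Xist-marked pair. For Aldh1b1, a mitochondrial aldehyde dehydrogenase, the difference was -1.58 (adjusted p = 0.0228), with higher levels in KO in both kinds. Aldh1b1 was at 134, 180 and 177 CPM in KO and 101, 46.2 and 43.8 CPM in WT. For both genes WT 1 stood apart from WT 2 and WT 3.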

How the results depend on the processing

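Of the 8 genes, 7 kept the direction of their log2 fold change in all 14 alternatives. Pkm turned to 0.0859 in the 4 Y-marked libraries. Calls were gained by Slc2a2 with no low-count filter (-1.12), with DESeq2 (-1.12), in the 4 Y-marked libraries (-1.27) and with the kind of library as a covariate (-1.13), by Gckr (0.64) and Pfkfb1 (-0.45) with DESeq2, and by Pfkl (-0.66), Pfkfb1 (-0.38) and Pklr (-1.13) in the 4 libraries. The calls among the 8 genes as lower numbered 1 with no filter, 2 with DESeq2, 4 in the 4 libraries and 1 with the covariate, and as higher 1 with DESeq2. List genes called as higher numbered 8 by library size alone, 8 with no filter, 15 with DESeq2, 19 in the 4 libraries and 12 with the covariate, against 5, and as lower 8 with DESeq2 and 14 in the 4 libraries, against 3. Of all genes tested, 3.51% were called in either direction by library size alone and 3.25% with no filter. The share was 15.8% with DESeq2, 33.3% in the 4 libraries and 10.3% with the covariate, against 3.37%. The cause was not tested. Gapdh missed the threshold with RLE size factors (adjusted p = 0.0508 in edgeR), and Bpgm by library size alone (0.0548), where 74.4% of all calls were higher, against 63.9% in the test as reported.

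Leaving out single libraries gave ranges of -1.37 to -0.91 for Slc2a2, 0.46 to 0.82 for Gckr, -0.67 to -0.33 for Pfkl, -0.48 to -0.40 for Pfkfb1, 0.13 to 0.59 for Khk, -1.32 to -0.0934 for Pklr, -0.28 to 0.0926 for Pkm and -0.81 to -0.19 for Ldha. Calls of the 8 genes as lower ranged from 0 to 5 (5 without KO 1). List genes called ranged from 0 to 16 as higher and 0 to 13 as lower. Both counts were 0 without KO 2, KO 3, WT 2 or WT 3, and they were 3 and 1 without WT 1. Of all genes tested, 30.2% were called without KO 1, and 0.0401% to 1.75% without any other single library. Txnip ranged from -0.98 to 0.15 and Slc2a5 from -0.60 to 0.0409, and Stk11 lost its call (adjusted p from 0.0607 to 0.104 in edgeR) without KO 2, KO 3, WT 2 or WT 3. Pkm was above 0 without KO 3 (0.0405) and without WT 1 (0.0926), Txnip without KO 2 (0.149), KO 3 (0.153) and WT 1 (0.127), and Slc2a5 without WT 3.

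With the replicate number as a block, 0 list genes were called in either direction, 0 of the 8 genes passed, 79 genes were higher and 26 lower over the table, and Slc2a2 was at -1.14. Deviations from the group means correlated at 0.18, 0.04 and 0.07 for the same-numbered libraries. Of the other combinations, KO 3 with WT 2 gave 0.20 and KO 2 with WT 3 gave 0.12, and the rest lay between -0.17 and -0.10. With 3 libraries per group these values cannot settle whether mice were paired. Replicate 1 of each group shares Xist counts, but the labels state no pairing, and the mice are not treated as pairs.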
